A study of Saccharomyces cerevisiae with 7 samples.

Results

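The 9 genes described here encode transcription factors of the stress responses of budding yeast, Saccharomyces cerevisiae: MSN2, MSN4, HSF1, YAP1, SKN7, RPN4, GIS1, XBP1 and USV1. They were found by gene symbol among the 5470 named genes of the array, and each was measured by 1 probe. Their RNA was followed while a culture used up its glucose, the passage called the diauxic shift, after which ethanol from the fermentation is respired. Each of the 7 arrays set RNA of the culture at 1 time point against a common reference, RNA from 0.14 OD culture with 19 g/L glucose. The sampled cultures stood at 0.14 OD and 19 g/L glucose at 0 h, 0.46 OD and 18.7 g/L at 9.5 h, 0.8 OD and 17.6 g/L at 11.5 h, and 1.8 OD and 14 g/L at 13.5 h. They then reached 3.7 OD and 7.5 g/L at 15.5 h, 6.9 OD and 0.2 g/L at 18.5 h, and 7.3 OD and 0 g/L at 20.5 h. No treatment other than growth is given, the labels name neither the strain nor the number of flasks, and no time point was replicated.

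Yeast cells answer stress and starvation largely by moving or modifying transcription factors that are already present. Msn2 and Msn4 are related zinc finger activators that are held in the cytoplasm by protein kinase A while glucose is plentiful and enter the nucleus when that kinase falls silent. Hsf1 drives chaperone genes, Yap1 and Skn7 act together on genes against oxidants, and Rpn4 turns on the genes of the proteasome and is itself destroyed by it. Gis1 acts on genes of the post-diauxic phase, Xbp1 is a repressor made under stress, and Usv1 is a zinc finger protein linked to growth on carbon sources other than sugars. Because several of these proteins are controlled after they are made, the level of RNA is only part of their control.

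Each value below is the log2 of culture RNA over reference RNA, after subtraction of the array's median; the direction and the log base are likely but not stated by the labels. A gene at 1 was 2-fold above the reference and a gene at -1 was 2-fold below it, relative to the median of the array. The centring removes a change shared by all genes, so the values are not amounts per cell. Fewer cells with a transcript and less of it per cell cannot be told apart. Of 8 genes known to be repressed by glucose, 6 were tested and 5 rose, where 19.5% of all genes did. The median of the 8 at 20.5 h was 4.06. The SD between spots of the same gene, taken from the 66 to 75 genes with several measured spots, ran from 0.185 at 13.5 h to 0.454 at 18.5 h, with 0.411 at 9.5 h. It is the only measure here of the error of a single value. The 0 h array, for which sample and reference carry equal OD and glucose, and the 9.5 h array stood apart from the rest: they correlated with each other across probes at 0.60 and with the 18.5 h array at -0.28 and -0.17.

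The factor genes did not move as a group. Between full glucose and none, RPN4, GIS1 and XBP1 rose, MSN2 and SKN7 fell, and MSN4, HSF1 and YAP1 did not pass the test. The test, limma, fitted each gene's log2 ratio as a line in the fraction of the initial glucose that was used up, and the threshold was 0.05 on p-values adjusted by Benjamini-Hochberg over the 4807 genes with a value on every array. USV1 had values on 5 of the 7 arrays and was not in that test; it rose in the same fit over the 5456 genes with at least 5 values, where 19.0% of all genes rose and 18.4% fell, 37.4% in all. So 3 of 8 tested factor genes rose, where 19.5% of all genes did, and 2 of 8 fell, where 19.0% did, or 5 of 8 in either direction, where 38.5% did. The median fitted change of the 8 was 0.31, against 0.02 for all genes tested. Counts out of 8 are small, and what follows concerns the single genes. The p-values rest on the scatter of 7 arrays about a line, treat neighbouring time points as independent, and do not measure the spread between cultures. When the 0 h and 9.5 h arrays were both left out, RPN4, GIS1 and XBP1 rose and 0 of the 8 fell (limma). Under quantile normalization, which forces the same spread on arrays whose SD over all genes ran from 0.292 to 0.937, RPN4, GIS1 and XBP1 rose, MSN2 (-0.24, adjusted p = 0.73) and SKN7 (-0.36, adjusted p = 0.661) did not pass, and MSN4 turned to -0.29 (limma).

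**Figure D1:**
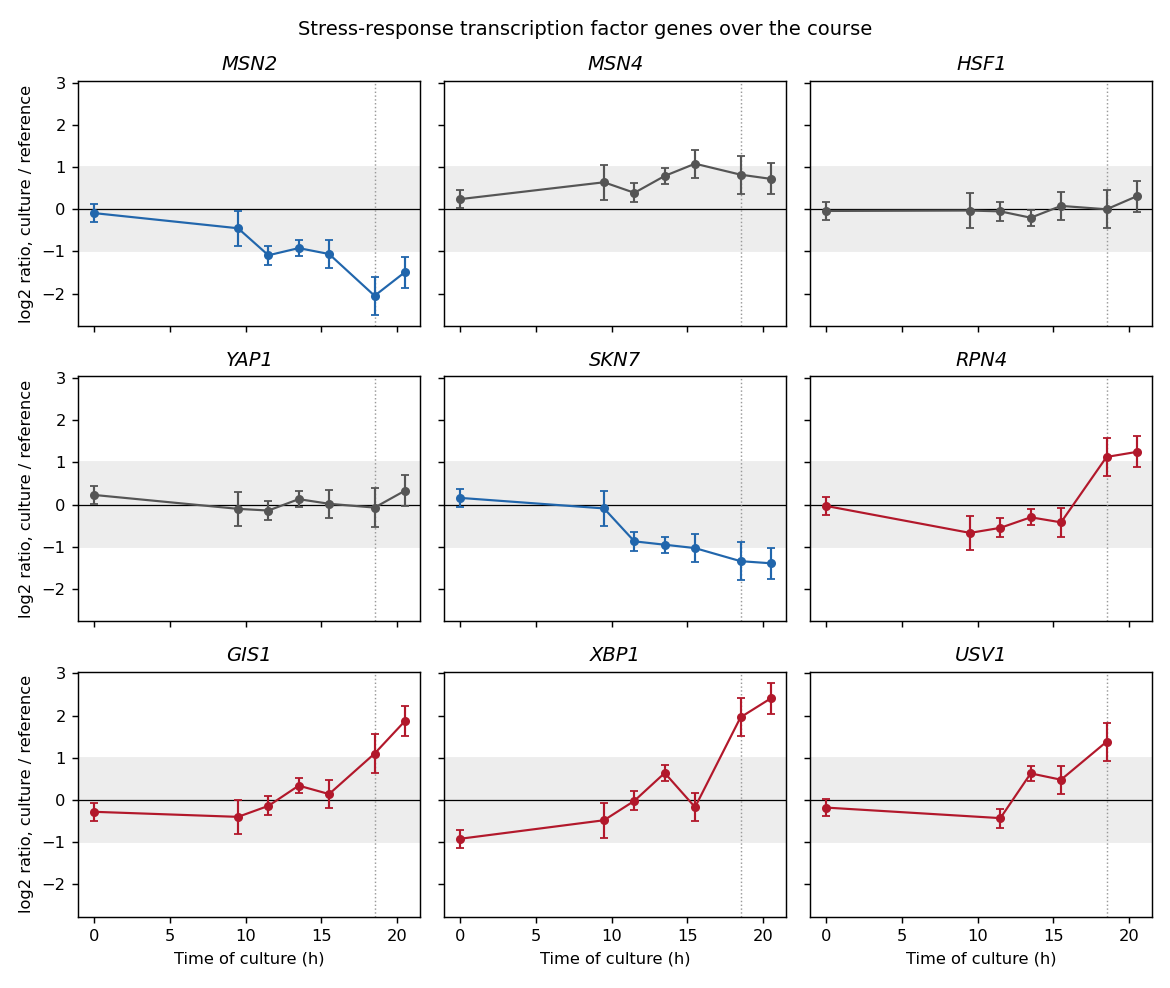
The log2 ratio of culture over reference (vertical axis) against time of culture in hours for each of the 9 factor genes; bars are the SD between spots of the same gene on that array, the grey band spans 2-fold either way, and the dotted line marks 18.5 h. Red genes rose with glucose consumed, blue genes fell and grey genes did not pass; MSN2 and SKN7 are already low at 11.5 h, while RPN4, GIS1 and XBP1 are highest at 18.5 h and 20.5 h.

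MSN2 (YMR037C), one of the general stress activators, fell early. Its log2 ratio was -0.09, -0.45, -1.09, -0.92, -1.06, -2.05 and -1.49 in time order from 0 h to 20.5 h. All 7 values lay below the reference, those from 11.5 h on were below both earlier ones, and the lowest came at 18.5 h, with 0.2 g/L glucose left. At 11.5 h, with 7.4% of the glucose consumed, 17 of 5311 genes, MSN2 included, were as low or lower, which is 0.320%. By then MSN2 had gone 71.0% of its way from 0 h to 20.5 h. Among the 868 genes that fell by the test and by at least 0.5 between these arrays, the median was 11.4% at 11.5 h, and 8 genes, MSN2 included, had gone at least as far. The share for MSN2 was 59.1% at 13.5 h and 140% at 18.5 h, because its last value was above that at 18.5 h. Its step from 9.5 h to 11.5 h was -0.63, against a spot SD of 0.47 for a difference between these arrays. The fitted change of MSN2 over the full range of glucose was -1.25 ± 0.28 (SE, 7 arrays; limma adjusted p = 0.00637), or 0.419-fold. The call was lost without the 18.5 h array (-0.99, adjusted p = 0.0525) and with the 0 h and 9.5 h arrays both left out (-0.87, adjusted p = 0.133).

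MSN4 (YKL062W), the paralogue of MSN2 and known as the member of the pair whose RNA is itself raised by stress, stayed above the reference throughout. It read 0.24, 0.64, 0.39, 0.79, 1.08, 0.82 and 0.72 in time order from 0 h to 20.5 h. The highest value came at 15.5 h, before glucose was gone, and it was the single factor gene at least 2-fold above the reference on that array, where 3.44% of all genes were. The fitted change was 0.39 ± 0.23 (limma adjusted p = 0.199), with a 95% confidence interval from -0.12 to 0.90.

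The members of the pair went apart. MSN4 minus MSN2 was 0.33, 1.09, 1.47, 1.71, 2.13, 2.87 and 2.22 in time order from 0 h to 20.5 h, so that MSN4 had the higher ratio on 7 of 7 arrays. These are differences between ratios to the reference and do not say which RNA was the more abundant. The slope of the difference over the full range of glucose was 1.65 (exact two-sided permutation test over all orders of the 7 arrays, p = 0.00397, and 0.0119 after Benjamini-Hochberg adjustment over the 6 pairs compared). Without the 18.5 h array the slope was 1.44, with an adjusted p of 0.0708 by the same exact permutation test, and after quantile normalization it was -0.05 (adjusted 0.94). Here and for the other pairs, the permutation test treats the arrays as exchangeable. They are successive points of a time course, so a smooth drift alone can give a small p.

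Genes that Msn2 and Msn4 are known to activate rose broadly. Of 22 listed, 18 were tested and 17 rose, where 19.5% of all genes did, with a median fitted change of 2.10. They included SOL4, a gene of the pentose phosphate pathway, at 3.62 ± 0.39 (SE), HSP12, a small stress protein, at 3.35 ± 0.27, CTT1, the cytosolic catalase, at 3.30 ± 0.29, and HSP26, a small heat shock protein, at 3.09 ± 0.24. TPS1, the trehalose-6-phosphate synthase, had one of the smallest fitted changes among those that rose, at 1.17 ± 0.29, and DCS2 did not pass at -0.27 ± 0.19. The median of the 19 measured target genes was 0.13, 0.23, 0.17, 1.07, 1.60, 2.39 and 2.23 in time order from 0 h to 20.5 h. Between 11.5 h and 13.5 h, when that median went from 0.17 to 1.07, MSN2 went from -1.09 to -0.92 and MSN4 from 0.39 to 0.79. Leaving out 1 array gave 14 to 16 target genes that rose, where 593 to 1158 of all genes did. Quantile normalization gave 6 of 18, where 238 of 4807 genes rose. This list, like the other lists here, was chosen with earlier results of these data known, so its counts only describe the listed genes. Which factor raised them was not tested.

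**Figure D2:**
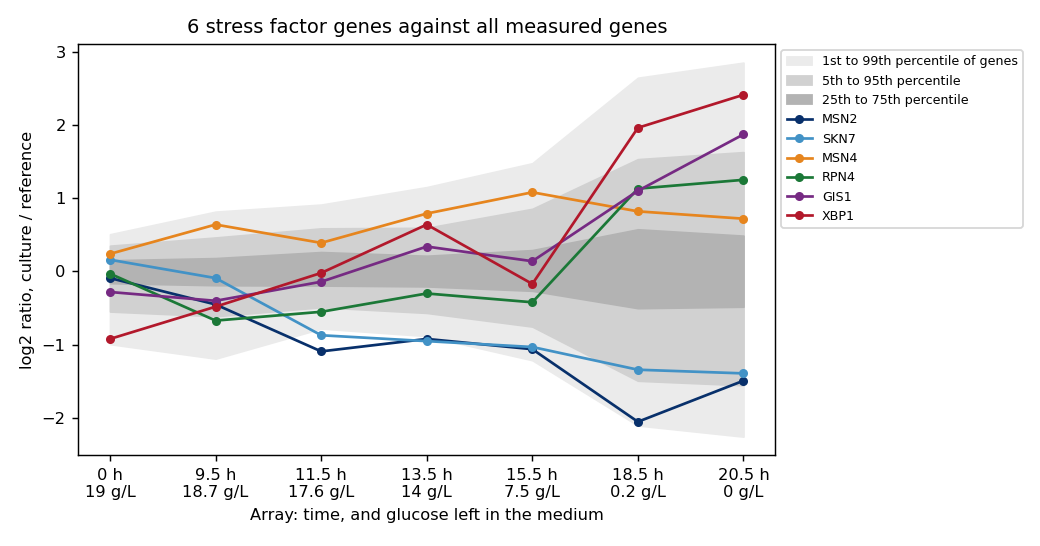
The log2 ratio of culture over reference (vertical axis) of 6 factor genes on each array, over shaded bands that hold the middle 50%, 90% and 98% of all measured genes; arrays are evenly spaced, with glucose left in the medium under each. MSN2 and SKN7 lie near the lower edge of the widest band from 11.5 h to 15.5 h, when the bands are narrow, and XBP1 lies above the 95th percentile at 18.5 h and 20.5 h.

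SKN7 (YHR206W), a response regulator with a DNA-binding domain of the heat shock factor type, followed a course like that of MSN2. Its values were 0.16, -0.09, -0.87, -0.95, -1.03, -1.34 and -1.39 in time order from 0 h to 20.5 h. The first 2 arrays lay near the reference and the other 5 well below it, with no overlap. At 11.5 h 34 of 5311 genes, SKN7 included, were as low or lower, and SKN7 had gone 66.4% of its way to the last array. Over the full range of glucose the fitted change was -1.13 ± 0.28 (limma adjusted p = 0.0108), or 0.457-fold. With the 0 h and 9.5 h arrays both left out it was -0.54 (limma adjusted p = 0.241). The step from 9.5 h to 11.5 h alone was -0.78, against a spot SD of 0.47 for that difference. Set as a step between the 5 earlier arrays and the 2 late ones the fitted change was -0.81 (limma adjusted p = 0.0756).

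YAP1 (YML007W), the basic leucine zipper activator that oxidants trap in the nucleus, kept close to the reference. It read 0.23, -0.10, -0.14, 0.13, 0.02, -0.07 and 0.33 in time order from 0 h to 20.5 h. The whole range was 0.47, the narrowest of the 9 genes. Its fitted change was 0.11 ± 0.21 (limma adjusted p = 0.696), with a 95% confidence interval from -0.35 to 0.57.

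YAP1 and SKN7, whose proteins meet at the promoters of antioxidant genes, differed from each other. YAP1 minus SKN7 was 0.07 at 0 h, -0.01 at 9.5 h and between 0.73 and 1.72 on the 5 later arrays. The slope of the difference was 1.24 (exact two-sided permutation test, p = 0.0111, adjusted over 6 pairs 0.0222). The adjusted p of that exact permutation test rose to 0.0542 with the 15.5 h array left out and to 0.102 with the 20.5 h array left out, and after quantile normalization the slope was 0.37 (adjusted 0.646). CAD1, the paralogue of YAP1, rose by 0.98 ± 0.21 (limma adjusted p = 0.00517), and YAP1 minus CAD1 had a slope of -0.87 (exact permutation p = 0.0196, adjusted 0.0295). That difference missed the threshold when the 0 h, 15.5 h, 18.5 h or 20.5 h array was left out, with exact permutation p-values, adjusted over the pairs, of 0.0958, 0.0542, 0.192 and 0.102. It also missed it after quantile normalization (-0.53, adjusted exact permutation p = 0.646) and against hours (-1.17, adjusted 0.0723). The slope of SKN7 minus its paralogue HMS2 was -0.68 and did not pass (exact permutation p = 0.074, adjusted 0.0888). It passed without the 11.5 h array, at -0.83 with an adjusted exact permutation p of 0.0333.

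The genes Yap1 is known to activate, some of them together with Skn7, included 3 that rose and 1 that fell. These were among 12 tested of 14 listed, set against 19.5% of all genes that rose and 19.0% that fell, with a median fitted change of -0.11. GRX2, a glutaredoxin, rose by 1.97 ± 0.18 (SE), CCP1, the mitochondrial cytochrome c peroxidase, by 0.74 ± 0.25 and GTT2, a glutathione transferase, by 0.70 ± 0.19. GPX2, a glutathione peroxidase, fell by 0.78, with a limma adjusted p of 0.0157. AHP1, a peroxiredoxin, was at -0.05 ± 0.44 over the course but stood at -1.16 at 11.5 h and -1.03 at 13.5 h. GSH1, which makes glutathione, was at -0.18 ± 0.29. When the 0 h array, the 9.5 h array or both were left out, 1 gene rose, and when the 18.5 h or the 20.5 h array was, 0 fell (limma).

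HSF1 (YGL073W), the essential heat shock factor, also stayed near the reference. Its values were -0.04, -0.03, -0.05, -0.20, 0.08, 0.00 and 0.31 in time order from 0 h to 20.5 h. The last value was the farthest from the reference, by less than the spot SD of that array, 0.365. The fitted change was 0.23 ± 0.19 (limma adjusted p = 0.349), with a 95% confidence interval from -0.19 to 0.66.

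The listed Hsf1 targets, largely chaperone genes, rose for the most part, and which factor raised them was not tested. Of 18 listed, 14 were tested, 10 rose and 1 fell, where 19.5% of all genes rose and 19.0% fell, with a median fitted change of 1.38. HSP42, a small heat shock protein, rose by 3.24 ± 0.29 (SE), HSP104, the disaggregase, by 2.63 ± 0.28, its mitochondrial relative HSP78 by 2.60 ± 0.28 and BTN2, a protein sorting factor, by 2.13 ± 0.20. HSP104 is also in the list of Msn2 and Msn4 targets. SSA1, a cytosolic Hsp70 gene, was at -0.19 ± 0.20 and MDJ1, a mitochondrial co-chaperone gene, at 0.04 ± 0.26. SSA2, named after its values were seen, did not pass at -0.58 ± 0.24 (limma adjusted p = 0.0803). The gene that fell, YDJ1, an Hsp40 co-chaperone named here after its values were seen, was at -0.59 ± 0.20 (limma adjusted p = 0.0417), and leaving out any 1 array other than those of 11.5 h and 15.5 h ended the call (limma adjusted p from 0.0729 to 0.157); 2 genes of the list fell without the 11.5 h array. After quantile normalization 4 of the 14 rose and 0 fell, where 238 of 4807 genes rose and 375 fell (limma). The median of the 17 measured genes went from -0.26 at 11.5 h through 0.44 at 15.5 h to 1.23 at 20.5 h, over which HSF1 itself ranged from -0.20 to 0.31.

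RPN4 (YDL020C), the activator of the proteasome genes, dipped and then rose sharply. It read -0.03, -0.67, -0.55, -0.30, -0.42, 1.13 and 1.25 in time order from 0 h to 20.5 h. The 5 arrays with glucose at 7.5 g/L or more lay at or below the reference and both late arrays at least 2-fold above it. From 15.5 h to 18.5 h it went up by 1.55, against a spot SD of 0.56 for a difference between these arrays; 9.84% of all genes went up and 9.02% went down at least 2-fold over that step. Fitted on glucose, the change was 1.54 ± 0.34 (limma adjusted p = 0.00568), or 2.90-fold, and as a step between the 5 earlier and the 2 late arrays it was 1.58 ± 0.20 (adjusted p = 0.00042). Against hours it was 1.34 (adjusted p = 0.202) and against log2 OD 1.35 (adjusted p = 0.113).

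The proteasome genes themselves moved little. Of 33 listed, 29 were tested and 3 rose, which is 10.3% where 19.5% of all genes rose, with a median fitted change of 0.21. The 3 were RPN8 at 0.97 ± 0.23 (SE), RPN6 at 0.76 ± 0.24 and RPT4 at 0.72 ± 0.20, all of the regulatory particle. PUP2, a core subunit gene, was at 0.65 ± 0.24 (limma adjusted p = 0.0524), SCL1 at 0.05 ± 0.26 and RPN10, a ubiquitin receptor gene, at 0.05 ± 0.21. The median of the 32 measured genes went from 0.11 at 15.5 h to 0.61 at 18.5 h and back to 0.10 on the last array, while RPN4 stood at 1.13 and 1.25 on the last 2 arrays. Without the 18.5 h array 0 proteasome genes rose, and 1 did when the 0 h and 9.5 h arrays were both left out (limma). Of the 29, 6 rose in the values as deposited, without centring, where 1223 of 4807 genes did. With centring within runs of probes 5 rose, where 962 of 4807 genes did. After quantile normalization 0 proteasome genes rose, where 238 of all genes did, and against hours 0, where 266 did (limma).

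GIS1 (YDR096W), the activator tied to post-diauxic genes, rose late and was still rising at the end. Its values were -0.28, -0.40, -0.14, 0.34, 0.14, 1.10 and 1.87 in time order from 0 h to 20.5 h. The 3 earliest values lay below the reference and the 4 later ones above it, with the last the highest by 0.77, against a spot SD of 0.58 for the difference between the last 2 arrays. Its fitted change was 1.71 ± 0.29 (limma adjusted p = 0.00149), or 3.26-fold, and it passed without any 1 array, at 1.27 to 1.91. Against hours it was 1.98 (adjusted p = 0.0523).

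RPH1, the paralogue of GIS1 and a histone demethylase gene, did not pass, at -0.08 ± 0.28. GIS1 minus RPH1 was -0.32 at 0 h and -0.60 at 9.5 h, between 0.57 and 0.67 on the next 3 arrays, 1.42 at 18.5 h and 1.92 at 20.5 h. The slope of the difference was 1.79 (exact two-sided permutation test, p = 0.00357, adjusted over 6 pairs 0.0119), and without the 20.5 h array 1.55 with an adjusted exact permutation p of 0.102; after quantile normalization it was 1.09 with an adjusted exact permutation p of 0.646. Of 5 listed targets of Gis1, 4 rose, where 19.5% of all genes did, and of these HSP12, HSP26 and GRE1 are also in the list of Msn2 and Msn4 targets. The fourth, SSA3, an Hsp70 gene of the post-diauxic phase, went from -0.12 at 11.5 h to 0.44 at 15.5 h and 1.68 at 20.5 h, with a fitted change of 1.53 ± 0.23 (limma adjusted p = 0.000877). GRE1, a hydrophilin gene, was at 1.95 ± 0.29, and SOD2, the mitochondrial superoxide dismutase gene, did not pass at 0.03 ± 0.29.

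**Figure D3:**
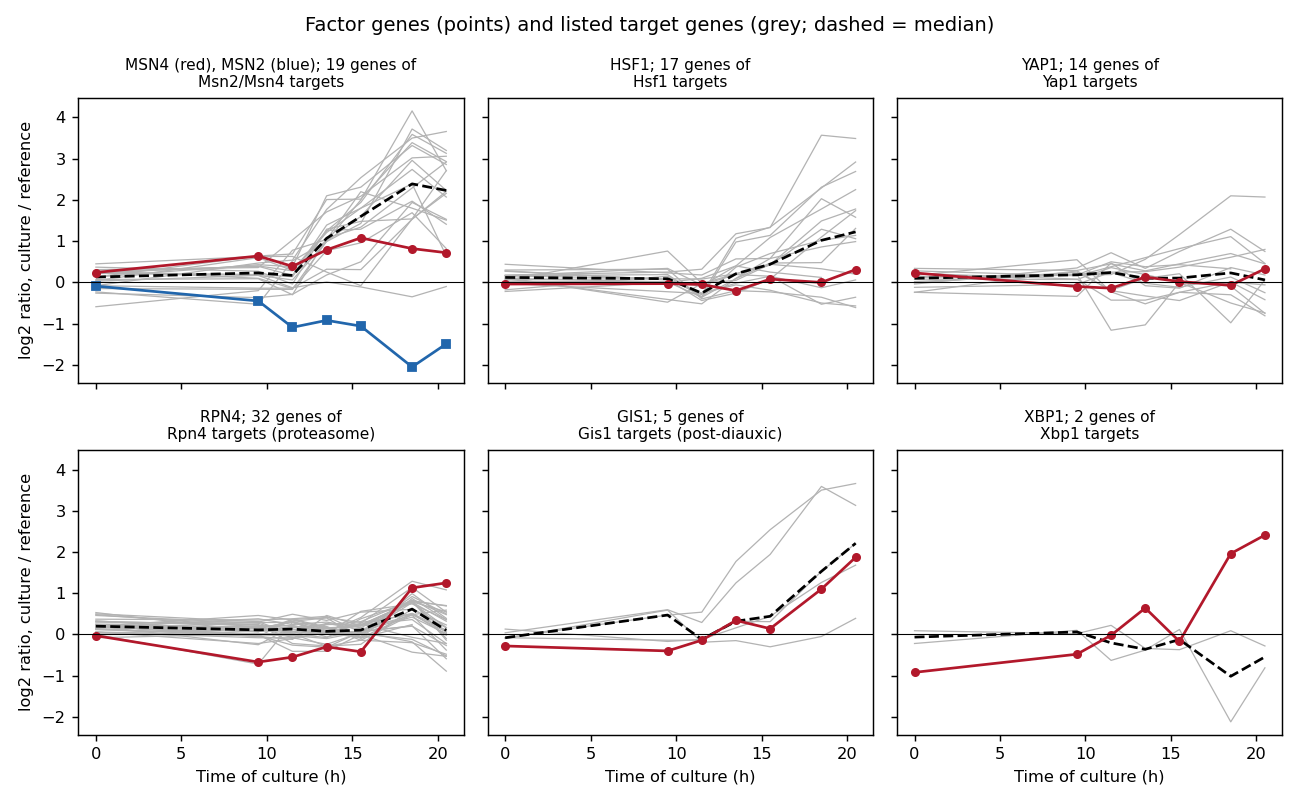
The log2 ratio of culture over reference (vertical axis) against time of culture in hours for 6 factor genes (red points; MSN2 in blue) and the measured genes of their target lists (grey lines, with the median dashed). The Msn2 and Msn4 targets have a median of 1.07 at 13.5 h while MSN2 is at -0.92; the proteasome genes have a median of 0.10 at 20.5 h while RPN4 is at 1.25.

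XBP1 (YIL101C), a repressor of the family of Swi4 and Mbp1, had the widest range of the 9 genes. It read -0.92, -0.48, -0.02, 0.64, -0.17, 1.96 and 2.41 in time order from 0 h to 20.5 h. Both late arrays stood well above all earlier ones, and the value at 15.5 h was below that at 13.5 h. From 15.5 h to 18.5 h it went up by 2.12. The 0 h value was among the lowest on an array whose sample matched the reference in OD and glucose, with 74 of 5446 genes, XBP1 included, as low or lower. The fitted change was 2.51 ± 0.44 (limma adjusted p = 0.0017), or 5.71-fold. It was 2.26 with the 0 h and 9.5 h arrays both left out (adjusted p = 0.0301) and passed without any 1 array, at 2.11 to 2.72.

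Among genes known to be repressed by Xbp1, the G1 cyclin genes CLN1 and CLN3 were listed, and 0 of the 2 passed, with 1 at an unadjusted p under 0.05 (limma). CLN1 went from 0.12 at 15.5 h to -2.12 at 18.5 h and stood at -0.81 on the last array, with a fitted change of -1.12 ± 0.44 (adjusted p = 0.0685). CLN3 ranged from -0.37 to 0.22, with a fitted change of -0.21 ± 0.23. CLN1 fell when the 15.5 h array was left out (limma). Of the 2 genes, 1 fell as a step between the 5 earlier and the 2 late arrays, and 1 with centring within runs of probes (limma). A list of 2 genes does not speak for all genes that Xbp1 represses. Outside the list, the G1 cyclin gene CLN2, named after its values were seen, was at -1.14 ± 0.34 (limma adjusted p = 0.0241).

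USV1 (YPL230W) had no value at 9.5 h or 20.5 h. The other 5 arrays, in time order from 0 h to 18.5 h, gave -0.18, -0.43, 0.63, 0.48 and 1.38. The values at 0 h and 11.5 h were below the reference, and the last measured was the highest. Over these 5 arrays the fitted change was 1.57 ± 0.36 (limma adjusted p = 0.0101), or 2.98-fold, in a fit that drops the 9.5 h and 20.5 h arrays for this gene. The call was lost without the 18.5 h array (1.40, adjusted p = 0.168), after quantile normalization (1.22, adjusted p = 0.167), against hours (1.46, adjusted p = 0.15) and against log2 OD (1.51, adjusted p = 0.0643). Against its paralogue RGM1 the slope of the difference was 1.17 over the same arrays and did not pass (exact two-sided permutation test over 120 orders, p = 0.217, adjusted 0.217; the smallest p these allow is 0.0083).

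**Figure D4:**
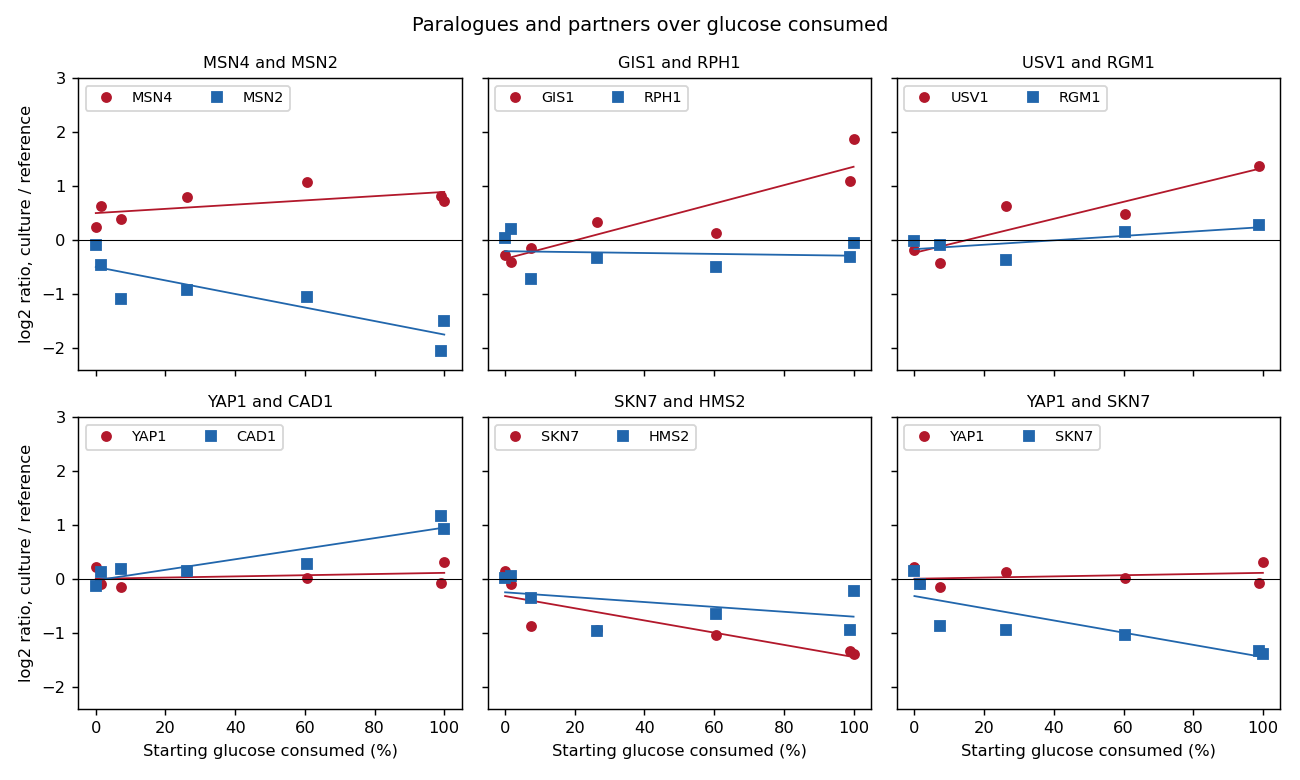
The log2 ratio of culture over reference (vertical axis) against the percent of the starting glucose consumed for the 6 pairs compared, with the least-squares line of each gene; USV1 and RGM1 are shown on the 5 arrays where both were measured. MSN4 has the higher ratio on all 7 arrays, by 0.33 at 0 h. GIS1 lies below RPH1 at 0 h and 9.5 h and above it from 11.5 h on, with the widest gaps at 18.5 h and 20.5 h.

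Counted by array, at most 3 factor genes were at least 2-fold from the reference up to 15.5 h, and more were at 18.5 h and 20.5 h. The share of all genes that far from the reference was also larger on those late arrays. At 0 h and 9.5 h there were 0 of 9 and 0 of 8 measured, where 1.01% and 2.03% of all genes were that far from the reference (0.0367% higher and 0.973% lower at 0 h, 0.498% higher and 1.53% lower at 9.5 h). At 11.5 h there was 1, MSN2, which was lower, as were 0.414% of all genes, while 0.603% were higher and 1.02% either. At 13.5 h there were 0 of 9, where 1.55% of all genes were higher, 0.577% lower and 2.12% either. At 15.5 h there were 3, with MSN4 higher and MSN2 and SKN7 lower, where 3.44% of all genes were higher, 2.04% lower and 5.48% either. At 18.5 h GIS1, RPN4, USV1 and XBP1 were at least 2-fold higher, where 11.6% of all genes were, and MSN2 and SKN7 at least 2-fold lower, where 11.5% were. At 20.5 h GIS1, RPN4 and XBP1 were higher, where 10.8% of all genes were, and MSN2 and SKN7 lower, where 11.5% were. Hence 6 of 9 factor genes at 18.5 h and 5 of 8 at 20.5 h were at least 2-fold from the reference, where 23.1% and 22.3% of all genes were. With 1.5-fold in place of 2-fold, 1 of 9 at 0 h, 2 of 8 at 9.5 h, 2 of 9 at 11.5 h and 5 of 9 at 13.5 h lay past the threshold, where 4.48%, 8.41%, 8.0% and 9.91% of all genes did.

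Of 17 listed paralogues and family members of the factors, 16 were tested, 4 rose, where 19.5% of all genes did, and 1 fell, where 19.0% did, with a median fitted change of 0.43. PHD1, of the Xbp1 family, rose by 1.14 ± 0.26 (SE), and of the Yap family YAP5 rose by 1.09 ± 0.25 and CIN5 by 1.08 ± 0.35, besides CAD1. CIN5 stood at 1.48 at 18.5 h and 0.14 at 20.5 h. Without the 18.5 h array CIN5 was at 0.43 (limma adjusted p = 0.175) and YAP5 at 0.92 (0.0531). The call of CIN5 was also lost without the 0 h, 9.5 h, 11.5 h or 13.5 h array (limma adjusted p from 0.0504 to 0.0744). YAP7, named after its values were seen, fell by 0.75, with a limma adjusted p of 0.0277. YAP6 was at 1.05 ± 0.59 and did not pass. COM2, a zinc finger gene related to MSN2, was at -0.11 ± 0.39 over the course but reached 1.24 at 11.5 h. When the 18.5 h array was left out 2 of the list rose (limma), and when the 0 h and 9.5 h arrays both were, 1 rose; 0 fell without the 0 h, 9.5 h, 18.5 h or 20.5 h array and 2 fell without the 11.5 h array.

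The listed kinases and partners that act on the factor proteins included genes that rose and genes that fell. Of 31 listed, 22 were tested, 3 rose, where 19.5% of all genes did, and 3 fell, where 19.0% did, with a median fitted change of -0.17; 7 of the 29 on the array were untested for a blank. BCY1, the inhibitory subunit of protein kinase A, rose by 0.75 ± 0.20 (SE) and PHO85, a cyclin-dependent kinase that acts on Rim15, by 0.79 ± 0.22. RAS1, an activator of the same kinase pathway, fell by 1.09 (limma adjusted p = 0.0108), and BMH1, a 14-3-3 protein gene, fell by 0.88 (adjusted p = 0.0375). HYR1, the peroxidase that oxidises Yap1, rose by 0.69 ± 0.20, and RAD6, a ubiquitin-conjugating enzyme that acts in the breakdown of Rpn4, fell by 0.71 (limma adjusted p = 0.0161); both were named after their values were seen. YAK1, a kinase gene named after its values were seen, had no value at 0 h and was untested; it stood at 1.80 at 18.5 h and 1.30 at 20.5 h. SCH9, also a kinase gene named after its values were seen, reached -1.32 at 18.5 h but did not pass (-0.74 ± 0.37). SNF1, the kinase of glucose repression, was at 0.03 ± 0.20 and YBP1, a Yap1-binding protein gene, at -0.02 ± 0.31. Without the 18.5 h array 1 of the list rose and 0 fell, without the 9.5 h array 1 rose and 1 fell, without the 0 h array 2 rose and 1 fell, without the 15.5 h array 5 fell, over genes with at least 5 values 5 of 29 rose and 4 fell, and with the 0 h and 9.5 h arrays both left out 1 rose and 0 fell (limma).

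The genes whose courses were most like those of the 3 factor genes with the widest range over 7 arrays were taken by Pearson correlation over the arrays, among 2377 other genes with a range of at least 1. Arrays of 1 time course share their trend, so high values are common and are given as a description. Nearest to XBP1 were INH1, the inhibitor of the mitochondrial ATP synthase, at 0.987, ATG16 at 0.984, HUL4 at 0.983, YBR053C at 0.981 and MAG1 at 0.980. Nearest to GIS1 were YPS5 at 0.995, ECM4 at 0.994, COR1, which encodes a part of respiratory complex III, at 0.990, GRE1 at 0.989 and SPG5 at 0.988. Nearest to MSN2 were SIR2, the histone deacetylase of silencing, at 0.990, LOS1, a tRNA exporter, at 0.988, TRM112 at 0.982, the ribosomal protein gene RPL32 at 0.978 and LYS20, of lysine synthesis, at 0.977. LYS20 ran close to MSN2 in level of ratio too, at -1.02 at 11.5 h and -2.05 at 18.5 h, whereas RPL32 stood at -0.22 and -1.10 on those arrays.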

How the data were processed

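RNA of 7 time points was measured on 2-channel arrays, and the labels name the software ScanAlyze version 2.41. The authors deposited log ratios; no source used here gives their background correction, dye normalization, spot filters or log base. The deposited values were taken as log2: 55 values lay at the 143 places where log2 ratios of small whole numbers fall, against 39.9 at shifted places. The natural log gave 162 against 160.5, and log10 gave 1412 against 1402.9. Scanner intensities were not used here, so signal level is unknown, and the number of arrays limits the precision.

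A single gene symbol was paired with 5548 of 6400 probes, several with 0 and none with 852; all 5548 matched the RefSeq table R64 by gene ID. Arrays held 6048 to 6342 values and had medians of -0.033 to 0.216 before centring. Spots of a gene were averaged (75 genes). Of 5470 genes, 663 were left out of the main test for a blank. limma 3.58.1 (R 4.3.3, lmFit and eBayes) had 5 residual and 5.46 prior degrees of freedom. Differences between pairs were tested by exact permutation of arrays. Alternatives were other centrings, regressors, filters and left-out arrays.

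The members, lists and tests were chosen with earlier results of these data known; target lists come from textbook yeast biology. Named genes were the 9 members, up to 4 genes with the largest and 2 with the smallest fitted change of each list, pair partners, and 5 nearest genes of 3 members. Each time point has its own array lot in the labels, so lot and time cannot be told apart, nor can time, OD and glucose.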

Additional observations from a re-analysis of the deposited data

How the results depend on the processing

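After quantile normalization, which gives every array the same spread although the SD over all genes ran from 0.292 at 0 h to 0.937 at 20.5 h, the calls of MSN2, SKN7, USV1 and the 4 pairs that had passed were lost: 0 factor genes fell, 238 genes rose and 375 fell, and the fitted changes were -0.24 for MSN2, -0.36 for SKN7, -0.29 for MSN4 and 1.22 for USV1, with pair slopes of -0.05 for MSN4 minus MSN2, 1.09 for GIS1 minus RPH1, -0.53 for YAP1 minus CAD1 and 0.37 for YAP1 minus SKN7. XBP1, GIS1 and RPN4 rose there too. Against hours the calls of RPN4, GIS1, USV1 and YAP1 minus CAD1 were lost: 266 genes rose and 233 fell, 1 of the 8 tested factor genes rose, and the values were 1.34 for RPN4, 1.98 for GIS1 (adjusted p = 0.0523), 1.46 for USV1, -0.0048 for YAP1 and -1.17 for YAP1 minus CAD1. Against log2 OD, 597 genes rose and 512 fell, and RPN4 at 1.35 and USV1 at 1.51 no longer passed. As a late step 1 factor gene fell, with SKN7 at -0.81 no longer passing. With the 0 h and 9.5 h arrays both left out 392 genes rose and 444 fell, 0 factor genes fell, and MSN2 at -0.87 and SKN7 at -0.54 no longer passed. Against hours 10 of 18 Msn2 and Msn4 targets, 4 of 14 Hsf1 targets, 1 of 12 Yap1 targets and 2 of 5 Gis1 targets rose (limma). Of all 4807 genes tested, 266 rose there. As deposited, the median gene had a fitted change of 0.20 against 0.02, and the 5 calls of factor genes held.

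Leaving out 1 array gave 593 to 1158 genes risen, 638 to 1093 fallen, 3 factor genes risen in each case and 1 to 2 fallen. Fitted changes ranged from -1.47 to -0.99 for MSN2, 0.26 to 0.54 for MSN4, 0.09 to 0.35 for HSF1, -0.07 to 0.26 for YAP1, -1.32 to -0.89 for SKN7, 1.28 to 1.82 for RPN4, 1.27 to 1.91 for GIS1, 2.11 to 2.72 for XBP1 and 1.35 to 1.68 for USV1. Slopes ranged from 1.31 to 2.01 for MSN4 minus MSN2, 1.55 to 2.02 for GIS1 minus RPH1, 0.91 to 1.34 for USV1 minus RGM1, -1.08 to -0.53 for YAP1 minus CAD1, -0.96 to -0.31 for SKN7 minus HMS2 and 1.07 to 1.47 for YAP1 minus SKN7. The alternatives for USV1 other than the fit over at least 5 arrays were chosen after seeing the data. At 1.5-fold in place of 2-fold, the arrays from 0 h to 13.5 h had 1, 2, 2 and 5 factor genes past the threshold, where 4.48%, 8.41%, 8.0% and 9.91% of all genes were. Where no cause is named, the cause was not tested. No paired analysis was possible because each time point has 1 array.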
